A study of Mus musculus with 6 samples.

Results

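The genes described here are 42 named lysosomal enzymes and membrane proteins, of 22180 genes measured in all. They were picked by function and not by their values in these tumours, although results of the same tumours were already known. Each was represented by its brightest probe set that names no other gene, and 41 of the 42 had one. Glb1, the beta-galactosidase gene, was annotated only on a probe set that it shares with other genes, and no value is given for it. Counts of measured genes are therefore out of 41.

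Lysosomes are the acidic compartments in which cells break down proteins, sugars, lipids and matrix taken up from outside or delivered by autophagy. They hold soluble hydrolases, a membrane coat of heavily glycosylated proteins, and a proton pump that keeps the lumen acidic. Macrophages carry many of them and use them on engulfed cells and matrix, and the melanosomes of pigment cells are related organelles that share part of the same proteins. Many lysosomal genes are under the transcription factors TFEB, TFE3 and MITF, which bind a common promoter sequence known as the CLEAR element.

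The 6 tumours were measured on 1 array each. The Stat2 KO group holds 3 tumours grown in C57BL6 mice without Stat2, a transcription factor of the type I interferon response, and the WT group holds 3 grown in wild-type mice of that background. All mice had been inoculated on the flank with B16-F1 cells, a pigmented mouse melanoma line, and the tumours were taken at day 20. By the design text, tumours grew larger in Stat2 KO mice; the size of each tumour is not given, so host genotype and tumour size cannot be told apart. The genotype is the host's: nothing in the labels says that the melanoma cells lack Stat2, and the age and sex of the mice and the kind of Stat2 allele are not given in the sources used here. The labels do not say that each tumour came from its own mouse, so tests measure the spread between these 6 tumours, which may be partly technical.

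Whole tumours were profiled, so RNA of the melanoma cells and of host cells was mixed, and fewer cells of a type and less RNA per cell cannot be told apart. Pigment cell genes read high in all 6 tumours, with mean levels over the 11 markers of 10.94 to 11.42 in Stat2 KO and 11.18 to 11.50 in WT hosts (log2). Stat2 itself was at 6.42 ± 0.077 in Stat2 KO hosts, against 6.73 ± 0.053 in WT hosts (mean ± SD of the log2 values, n = 3 each). It differed by -0.31 (SE 0.13) with groups that did not overlap, as 5.11% of all genes did with Stat2 KO lower. Its mean level over the 6 tumours, 6.58, lay below 6.72, the 95th percentile of olfactory receptor genes, a family read mainly in the nose. Signal above background was therefore not shown for Stat2. Whether its probes lie in the deleted part is not known here. Values are log2 expression values throughout, every difference is Stat2 KO host minus WT host, and every adjusted p comes from limma over all 22180 genes.

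The promoters of the lysosomal genes carried the CLEAR core more often than promoters at large. The element was first described from promoters of lysosomal genes, so this is a known property of such genes and not a result of the tumours. Promoter windows of 300 bases, from 250 before to 50 after an annotated start (RefSeq, GRCm38.p6), were held for 37 of the 42 genes, 42 windows in all. The 7 letters TCACGTG, the core of the CLEAR element, stood on either strand in 11 of these windows, or 26.2%, against 1237 of 32851 windows of all genes, or 3.77%. The 11 genes were Arsa, Ctsa, Ctsd, Gaa, Gla, Glb1, Lamp1, Lgmn, Mcoln1, Naglu and Sgsh. The 5 windows shown are those of Lamp1, which has the most copies, of Mcoln1, Ctsd and Gla, which with Ctsa have 2, and of Lgmn, which has the smallest p of the 41. Capitals mark the CLEAR core with both strands merged where they overlap, and each sequence runs in the direction of its gene.
Lamp1 chr8:13158911-13159210, plus strand: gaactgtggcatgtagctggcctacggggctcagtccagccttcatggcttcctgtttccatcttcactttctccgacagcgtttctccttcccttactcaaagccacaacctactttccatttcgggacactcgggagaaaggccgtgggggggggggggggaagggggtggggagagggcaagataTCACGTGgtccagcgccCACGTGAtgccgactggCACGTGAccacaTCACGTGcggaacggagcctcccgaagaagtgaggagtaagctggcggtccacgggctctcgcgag
Mcoln1 chr8:3500269-3500568, plus strand: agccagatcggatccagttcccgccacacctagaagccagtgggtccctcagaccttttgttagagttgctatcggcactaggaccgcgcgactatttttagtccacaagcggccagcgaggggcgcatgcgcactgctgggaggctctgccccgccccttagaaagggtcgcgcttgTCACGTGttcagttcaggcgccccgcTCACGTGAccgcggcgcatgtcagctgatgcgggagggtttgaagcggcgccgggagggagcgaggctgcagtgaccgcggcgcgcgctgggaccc
Ctsd chr7:142387778-142388077, minus strand: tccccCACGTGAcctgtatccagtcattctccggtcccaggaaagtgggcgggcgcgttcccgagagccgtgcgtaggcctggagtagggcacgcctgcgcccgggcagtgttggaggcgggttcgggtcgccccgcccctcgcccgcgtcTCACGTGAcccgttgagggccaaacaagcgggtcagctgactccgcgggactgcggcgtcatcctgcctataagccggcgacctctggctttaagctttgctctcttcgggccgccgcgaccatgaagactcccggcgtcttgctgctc
Gla chrX:134600956-134601255, minus strand: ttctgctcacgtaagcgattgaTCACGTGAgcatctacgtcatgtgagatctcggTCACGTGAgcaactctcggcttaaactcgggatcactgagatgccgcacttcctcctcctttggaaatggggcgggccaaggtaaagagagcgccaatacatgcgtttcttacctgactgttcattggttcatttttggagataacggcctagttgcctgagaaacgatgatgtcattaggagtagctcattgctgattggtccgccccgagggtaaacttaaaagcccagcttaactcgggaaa
Lgmn chr12:102439043-102439342, minus strand: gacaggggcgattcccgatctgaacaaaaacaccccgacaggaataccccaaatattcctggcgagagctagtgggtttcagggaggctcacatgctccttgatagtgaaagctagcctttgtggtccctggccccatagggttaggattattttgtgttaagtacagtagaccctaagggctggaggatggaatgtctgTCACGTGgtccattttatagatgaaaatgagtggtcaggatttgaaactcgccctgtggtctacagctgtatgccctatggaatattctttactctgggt
In Lamp1 the 4 copies begin at -62, -45, -28 and -16, counted in bases from the annotated start. Mcoln1 has copies that begin at -72 and -46, Ctsd at -245 and -99, and Gla at -228 and -195. The Lgmn copy begins at -50 from the downstream of 2 annotated starts, and the window of the upstream start holds none.

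The shorter palindrome CACGTG, which lies inside the CLEAR core, was in 13 of the 42 windows (31.0%, against 7.15% of all windows), and the M-box TCATGTG, a sequence bound by MITF, in 5 (11.9%, against 3.77%). Of the interferon motifs, the ISRE (GAAA, any 2 bases, GAAA), to which STAT2 complexes bind, was in 3 windows (7.14%, against 3.44%), namely of Ctso, Lamp1 and Tcirg1. The gamma-activated site TTCNNNGAA was in 2 (4.76%, against 8.30%), those of Ctsc and Arsa. All motifs were read on both strands. Of the 10 measured genes with the CLEAR core, 8 were lower in Stat2 KO hosts, with a median difference of -0.17, and of the 26 measured genes whose windows lacked it, 21 were lower, with a median of -0.12.

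**Figure D1:**
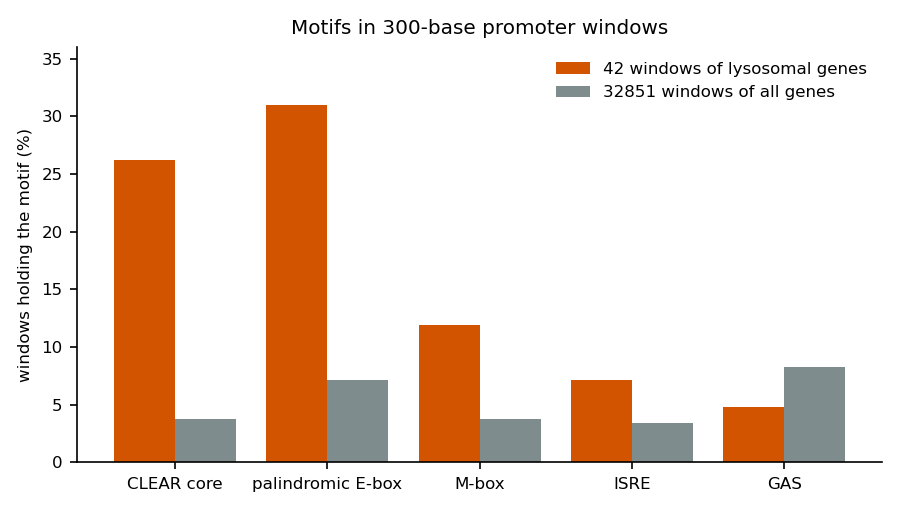
Share of 300-base promoter windows, in percent, that hold each motif on either strand, for the 42 windows of lysosomal genes (orange) and for all 32851 windows (grey). The CLEAR core is in 26.2% of the windows of lysosomal genes and in 3.77% of all windows, while the gamma-activated site (GAS) is the 1 motif with the smaller share in the lysosomal genes.

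Most lysosomal genes were slightly lower in tumours of Stat2 KO hosts, and none of the 41 passed the adjusted threshold of 0.05. The smallest adjusted p was 0.46, that of Lgmn, and over all genes 2 passed, which is 0.00902% of those tested. Of the 41 genes 34 were lower and 7 higher, or 82.9% lower, while 46.0% of all genes were lower and 54.0% higher, with a median difference of -0.16 against 0.021 over all genes. Bright probe sets were lower in general, however. Genes were split by mean level into 4 bins of equal size, and in the brightest bin, which holds 34 of the 41 and starts at a mean level of 7.43, 76.6% were lower, 23.4% were higher and the median difference was -0.11. Of those 34 lysosomal genes 29, or 85.3%, were lower, with a median of -0.14.

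That direction depended on scaling and on single tumours. After a further quantile normalization 26 were lower and 15 higher, with a median of -0.061, and the counts were the same after cyclic loess, with a median of -0.052. The brightest bin then had 52.0% and 50.8% lower. Without Stat2 KO replicate 2 the 41 genes were also split 26 to 15, or 63.4% lower, with a median of -0.056. The brightest bin then had 62.1% lower and a median of -0.046. The share lower was smaller in the lysosomal genes than in that bin without WT replicate 1 (68.3% against 69.4%) and without WT replicate 2 (75.6% against 76.1%). The same held after median centring (85.4% against 87.0%). In every other alternative it was larger in the lysosomal genes. Leaving out Stat2 KO replicate 1 gave a median of -0.26, WT replicate 1 one of -0.097 and WT replicate 3 one of -0.27. The median stayed below 0 under all 14 alternatives tried.

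At an unadjusted p under 0.05 stood 5 lysosomal genes, all lower: Lgmn, Arsb, Tcirg1, Psap and Ctsh. They make up 12.2% of the 41, against 3.48% of all genes and 6.33% of the brightest bin, and 0 lysosomal genes were higher at that level, against 5.34% of all genes and 1.19% of the brightest bin. The 5 became 10 when Stat2 KO replicate 1 was left out, 3 when replicate 2 or 3 of Stat2 KO hosts or replicate 1 of WT hosts was, and 1 when WT replicate 2 was. It was 3 after the further quantile normalization or cyclic loess, and 13 with array weights. All Stat2 KO tumours were below all WT tumours for Lgmn, Tcirg1 and Gla, which is 7.32% against 5.11% of all genes and 8.67% of the brightest bin. Ctsf was the 1 gene with all Stat2 KO tumours higher, or 2.44%, against 8.23% of all genes and 1.48% of the brightest bin. Ctsf itself lies in a dimmer bin, where 13.3% of genes had all Stat2 KO tumours higher. For each of these 4 genes the exact two-sided permutation p was 0.1, the smallest that 3 tumours against 3 allow.

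**Figure D2:**
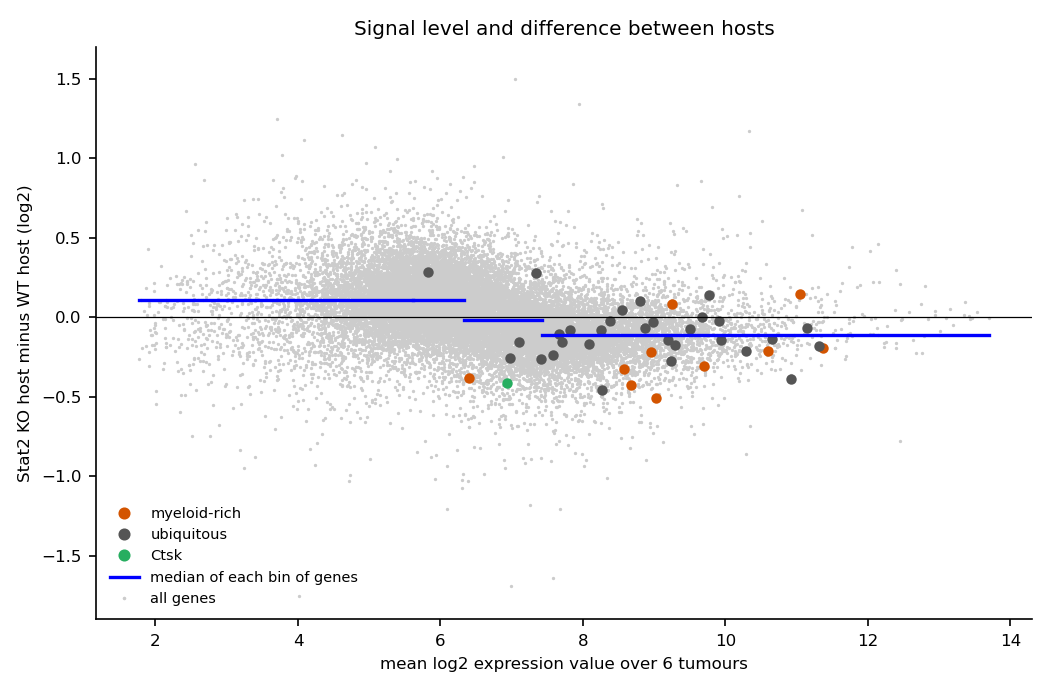
Mean log2 expression value over the 6 tumours (horizontal) against the difference, Stat2 KO host minus WT host, in log2 units (vertical), for myeloid-rich members (orange), ubiquitous members (dark grey), Ctsk (green) and all genes (light grey), with the median of each bin of genes as a blue line. The bin medians run from 0.11 in the dimmer bins to -0.11 in the brightest, and the lysosomal genes scatter around the line of their own bin, with Ctsk, Lgmn, Ctsh, Arsb and Ctsc the furthest below it.

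Among the endopeptidases, which cut inside protein chains, Lgmn stood furthest from 0. It encodes legumain, an asparaginyl protease that matures other lysosomal enzymes and is abundant in macrophages. Lgmn read 8.85, 8.73 and 8.72 in Stat2 KO hosts, against 9.36, 9.41 and 9.05 in WT hosts. Every Stat2 KO tumour was below every WT tumour, and the Stat2 KO values lay close together. The means were 8.76 ± 0.073 in Stat2 KO hosts, against 9.27 ± 0.19 in WT hosts (± SD, n = 3 each) and the difference -0.51 (SE 0.14, adjusted p = 0.46), a change of -29.7%. In the brightest bin 1.80% of genes had a lower difference. Across the 14 alternatives the difference lay between -0.62 and -0.40 and the adjusted p between 0.0406 and 0.908. It passed 0.05 with array weights, where 257 genes were called in all and Stat2 KO replicate 3 and WT replicate 2 counted most.

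The values of Ctsb, Ctsl and Ctsd overlapped between hosts. Ctsb, an abundant cysteine protease, read 10.79, 10.25 and 10.43 in Stat2 KO hosts, against 10.77, 10.81 and 10.53 in WT hosts. Ctsl, a cysteine protease that also trims the MHC class II invariant chain, read 9.08, 8.52 and 8.92 in Stat2 KO hosts, against 8.99, 9.28 and 8.91 in WT hosts. In both, Stat2 KO replicate 2 was the lowest of all 6 tumours and Stat2 KO replicate 1 lay within the WT range. Ctsd, the main aspartic protease of lysosomes, read 11.49, 10.91 and 11.41 in Stat2 KO hosts, against 11.60, 11.50 and 11.29 in WT hosts, again lowest in Stat2 KO replicate 2. The differences were -0.22 (SE 0.16, adjusted p = 0.704) for Ctsb, -0.22 (SE 0.17, adjusted p = 0.709) for Ctsl and -0.19 (SE 0.17, adjusted p = 0.739) for Ctsd, each smaller than the SD within the Stat2 KO group (0.28, 0.29 and 0.31). Without Stat2 KO replicate 2 they were -0.096, -0.056 and -0.014.

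Ctsk, the collagen-cutting protease of osteoclasts and of activated fibroblasts, read 7.24, 6.25 and 6.68 in Stat2 KO hosts, against 7.38, 7.39 and 6.65 in WT hosts. WT replicate 3 lay among the Stat2 KO tumours, and the values spread widely in both hosts. Its difference was -0.42 (SE 0.25, adjusted p = 0.633), and leaving out Stat2 KO replicate 1 gave -0.67, replicate 2 -0.18. The 8 fibroblast markers were lower in 7 of 8, or 87.5%, with a median of -0.40, beside 46.0% of all genes. Their median level was 7.24, within a bin of genes of which 53.9% were lower, beside 76.6% of the brightest bin. For 6 of the 8 markers, or 75.0%, Stat2 KO replicate 2 was the lowest of all 6 tumours, against 24.1% of their bin. The per-tumour mean levels of these markers were 6.39 to 6.92 in Stat2 KO and 6.95 to 7.29 in WT hosts (log2). Their part in the Ctsk values was not tested.

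Ctsf and Ctso, cysteine proteases of broader use, were higher in Stat2 KO hosts. Ctsf read 6.0, 5.998 and 5.90 in Stat2 KO hosts, against 5.75, 5.82 and 5.47 in WT hosts, with every Stat2 KO tumour above every WT tumour and a difference of 0.29 (SE 0.14, adjusted p = 0.588). Ctso read 7.47, 7.39 and 7.60 in Stat2 KO hosts, against 6.96, 7.13 and 7.53 in WT hosts, with WT replicate 3 among the Stat2 KO values and a difference of 0.28 (SE 0.16, adjusted p = 0.628). Ctsf was 1 of the 2 lysosomal genes, with Ctsh, whose mean level lay below 6.72, the 95th percentile of olfactory receptor genes, a family read mainly in the nose. Those 1105 genes had a median level of 5.21 and a median difference of 0.22. Signal above background was therefore not shown for Ctsf and Ctsh.

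The exopeptidases, which trim chain ends, were mixed. Ctsc encodes dipeptidyl peptidase I, which activates the serine proteases stored in the granules of myeloid and cytotoxic cells. It read 8.81, 7.88 and 8.69 in Stat2 KO hosts, against 8.996, 9.0 and 8.66 in WT hosts. Stat2 KO replicate 2 stood far below the rest, and the other Stat2 KO tumours reached into the WT range. The difference of -0.43 (SE 0.22, adjusted p = 0.598) became -0.14 without that replicate. Ctsh, an aminopeptidase of macrophages and lung epithelium, read 6.09, 6.13 and 6.41 in Stat2 KO hosts, against 6.51, 6.90 and 6.37 in WT hosts, with 1 Stat2 KO tumour inside the WT range and a difference of -0.38 (SE 0.16, adjusted p = 0.547).

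Ctsz, a carboxypeptidase of myeloid cells, read 11.34, 10.92 and 11.11 in Stat2 KO hosts, against 10.93, 11.001 and 11.02 in WT hosts. It was not lower in Stat2 KO hosts: replicate 1 was the highest of the 6 tumours and replicate 2 the lowest, and the difference was 0.14 (SE 0.15, adjusted p = 0.773). In the brightest bin 93.2% of genes had a lower difference than Ctsz. Ctsa, the protective carboxypeptidase that holds beta-galactosidase and sialidase in a stable complex, differed by 0.14 (SE 0.16, adjusted p = 0.809), and by -0.011 without Stat2 KO replicate 1. Tpp1, tripeptidyl peptidase I, averaged 10.18 ± 0.27 in Stat2 KO hosts, against 10.39 ± 0.29 in WT hosts (n = 3 each) and differed by -0.21 (SE 0.18, adjusted p = 0.734).

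All 6 measured genes of sphingolipid breakdown were lower, where 76.6% of the brightest bin were, with differences from -0.39 to -0.077, and 1 had an unadjusted p under 0.05. That was Psap, whose product is cut into the saposins that present lipids to the hydrolases. Psap read 10.99, 10.61 and 10.59 in Stat2 KO hosts, against 11.23, 11.30 and 10.84 in WT hosts, with Stat2 KO replicate 1 inside the WT range, and differed by -0.39 (SE 0.17, adjusted p = 0.547). Gla, the alpha-galactosidase lost in Fabry disease, read 7.50, 6.998 and 7.34 in Stat2 KO hosts, against 7.57, 7.55 and 7.52 in WT hosts. Its groups did not overlap, but by a margin of only a few hundredths between Stat2 KO replicate 1 and WT replicate 3. The WT tumours lay within a narrow band and the Stat2 KO tumours did not, with SDs of 0.26 in Stat2 KO and 0.026 in WT hosts. The difference was -0.26 (SE 0.15, adjusted p = 0.623), and -0.12 without Stat2 KO replicate 2. The remaining differences were -0.24 (SE 0.16, adjusted p = 0.66) for Arsa, which removes sulfate from sulfatide, -0.14 (SE 0.20) for Smpd1, the acid sphingomyelinase, -0.14 (SE 0.21) for Hexa, the alpha subunit of hexosaminidase, and -0.077 (SE 0.18) for Asah1, the acid ceramidase. Smpd1, Hexa and Asah1 were higher in Stat2 KO hosts once Stat2 KO replicate 2 was left out (0.088, 0.16 and 0.041). Asah1 was also higher after quantile normalization (0.012), after cyclic loess (0.029) and without WT replicate 1 (0.092), and Hexa with array weights (0.062).

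All 7 genes of glycosaminoglycan breakdown were lower as well, where 46.0% of all genes and 76.6% of the brightest bin were, 1 with an unadjusted p under 0.05. Arsb, the sulfatase that acts on dermatan and chondroitin sulfate, read 8.10, 8.15 and 7.85 in Stat2 KO hosts, against 8.81, 8.53 and 8.13 in WT hosts. WT replicate 3 lay just below Stat2 KO replicate 2, and the other WT tumours stood above every Stat2 KO tumour. Its difference was -0.46 (SE 0.18, adjusted p = 0.523), and between -0.64 and -0.30 over the alternatives. A dimmer probe set of Arsb differed by -0.42. Galns, which removes sulfate from keratan sulfate, differed by -0.26 (SE 0.19). Among the heparan sulfate enzymes Naglu differed by -0.18 (SE 0.19), Sgsh by -0.16 (SE 0.21), Idua by -0.16 (SE 0.14) and Ids by -0.081 (SE 0.13). Gusb, the beta-glucuronidase, differed by -0.029 (SE 0.17). Gusb and Ids were higher in Stat2 KO hosts after quantile normalization (0.069 and 0.044) and after cyclic loess (0.085 and 0.028). Leaving out replicate 2 of either host also made Gusb higher (0.15 without that of Stat2 KO, 0.031 without that of WT).

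Glycosidases of glycoproteins and glycogen had small differences, with 0 of 5 at an unadjusted p under 0.05 and a median of -0.083. Gaa, the acid alpha-glucosidase that degrades glycogen, averaged 9.12 ± 0.25 in Stat2 KO hosts, against 9.27 ± 0.23 in WT hosts, a difference of -0.15 (SE 0.17). The alpha-mannosidase gene Man2b1 differed by -0.083 (SE 0.19), the beta-mannosidase gene Manba by -0.10 (SE 0.16) and the fucosidase gene Fuca1 by -0.023 (SE 0.17). Neu1, the lysosomal sialidase, was on the other side at 0.10 (SE 0.15). Each of these 5 differences was smaller than the larger of its 2 group SDs. The same held for 33 of the 41 genes.

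Of the genes that handle cholesterol and other lipids, Npc2 and Npc1 were lower and Lipa was not. Npc2, the soluble protein that hands cholesterol to the membrane protein NPC1, read 9.62, 9.63 and 9.39 in Stat2 KO hosts, against 9.95, 10.09 and 9.52 in WT hosts. WT replicate 3 lay among the Stat2 KO tumours, and the difference was -0.31 (SE 0.17, adjusted p = 0.616). Npc1 averaged 9.10 ± 0.33 in Stat2 KO hosts, against 9.38 ± 0.20 in WT hosts (n = 3 each) and differed by -0.28 (SE 0.18, adjusted p = 0.655), while a dimmer probe set of it, at a mean of 5.11, differed by 0.092. Lipa, the acid lipase that frees cholesterol from its esters, read 9.52, 8.80 and 9.53 in Stat2 KO hosts, against 9.31, 9.13 and 9.17 in WT hosts. Here 2 Stat2 KO tumours were above all WT tumours and Stat2 KO replicate 2 was below them all, so that the difference of 0.084 (SE 0.19, adjusted p = 0.901) became 0.33 without that replicate. Ppt1, a thioesterase that removes fatty acids from proteins, differed by -0.068 (SE 0.17).

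In the membrane group Tcirg1 was the 1 gene of 7 with an unadjusted p under 0.05. It encodes the proton pump subunit of osteoclasts and macrophages. Tcirg1 read 8.53, 8.36 and 8.36 in Stat2 KO hosts, against 8.68, 8.82 and 8.72 in WT hosts. The groups did not overlap and both were tight, with means of 8.42 ± 0.10 in Stat2 KO hosts, against 8.74 ± 0.070 in WT hosts (± SD, n = 3 each) and the difference -0.33 (SE 0.13, adjusted p = 0.527), a change of -20.2%. It lay between -0.39 and -0.21 over the alternatives, with an adjusted p between 0.0810 and 0.917. Atp6ap1, an accessory subunit of the same pump, averaged 9.67 ± 0.18 in Stat2 KO hosts, against 9.67 ± 0.30 in WT hosts and differed by -0.0015 (SE 0.17).

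The main coat proteins had differences smaller than their SEs. Lamp1 read 11.12, 11.05 and 11.17 in Stat2 KO hosts, against 11.40, 11.20 and 10.95 in WT hosts, a difference of -0.071 (SE 0.15), with its Stat2 KO values all inside the WT range. Lamp2 averaged 9.90 ± 0.37 in Stat2 KO hosts, against 9.93 ± 0.23 in WT hosts, a difference of -0.025 (SE 0.19). Cd63, a tetraspanin of lysosomes and melanosomes, differed by -0.18 (SE 0.19), Scarb2, the receptor that carries glucocerebrosidase to lysosomes, by -0.17 (SE 0.17), and the calcium channel gene Mcoln1 by 0.046 (SE 0.15).

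**Figure D3:**
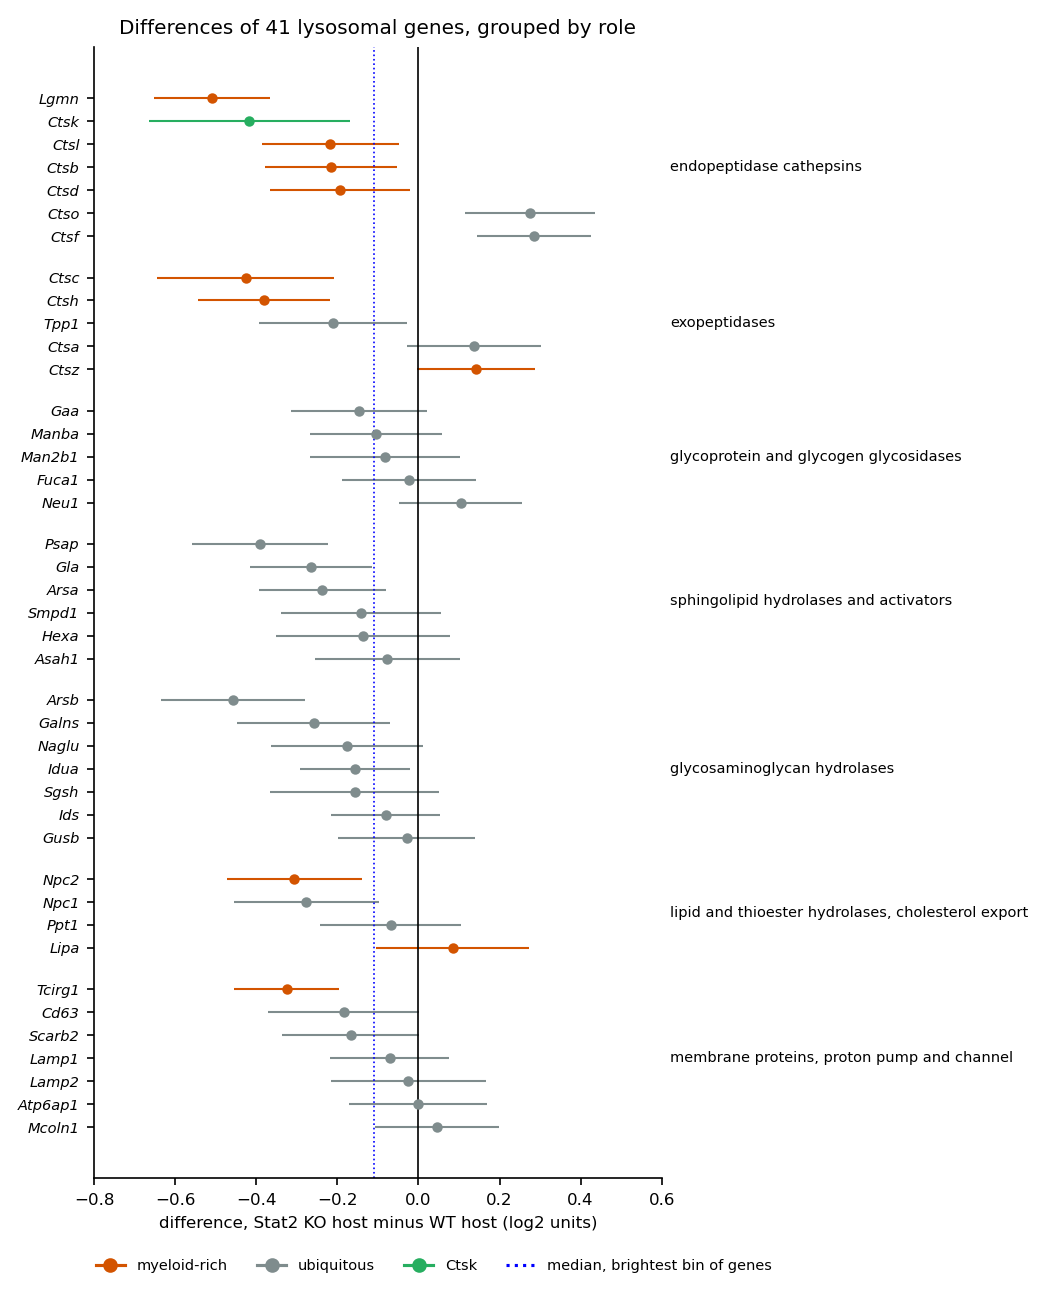
Difference between hosts, Stat2 KO minus WT, in log2 units for the 41 measured lysosomal genes, with bars of 1 SE from limma, grouped by role and coloured by class (orange myeloid-rich, grey ubiquitous, green Ctsk). The dotted line is the median of the brightest bin, -0.11; Lgmn, Arsb, Ctsc and Ctsk lie furthest to its left, and Ctsf and Ctso furthest to its right.

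The 10 genes that are typically rich in myeloid cells were compared with the 30 measured genes that most cells use, and Ctsk was kept apart. The myeloid-rich genes, Ctsb, Ctsc, Ctsd, Ctsh, Ctsl, Ctsz, Lgmn, Lipa, Npc2 and Tcirg1, were lower in 8 of 10 with a median of -0.26. The ubiquitous genes were lower in 25 of 30 with a median of -0.12. At an unadjusted p under 0.05 stood 3 myeloid-rich genes, or 30.0%, and 2 ubiquitous genes, or 6.67%, all lower. Of all genes 3.48% were lower at that level, and of the brightest bin 6.33%. Ctsh, for which signal above background was not shown, is among the 3 myeloid-rich genes. Within the brightest bin, the 9 myeloid-rich genes it holds had a median of -0.22 and the 25 ubiquitous genes -0.10, beside -0.11 for the bin itself. There, 7 of the 9 myeloid-rich genes and 12 of the 25 ubiquitous genes lay below the bin's median.

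The medians of the classes differed by -0.14, where the same difference taken tumour by tumour had a spread of 0.10 (SD within groups). Tumour by tumour the hosts overlapped. The median deviation of the myeloid-rich genes was below that of the ubiquitous genes in Stat2 KO replicates 1 and 2 and in WT replicate 1. In Stat2 KO replicate 3 (-0.0073 against -0.089) and WT replicates 2 and 3 it was above. The difference between the class medians stayed between -0.21 and -0.084 when single tumours were left out, and was -0.15 after quantile normalization and after cyclic loess. Without Stat2 KO replicate 2 it was -0.084, with medians of -0.12 for the myeloid-rich and -0.032 for the ubiquitous genes. No p is given, because the genes were assigned to the classes with results known and share the same 6 tumours.

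**Figure D4:**
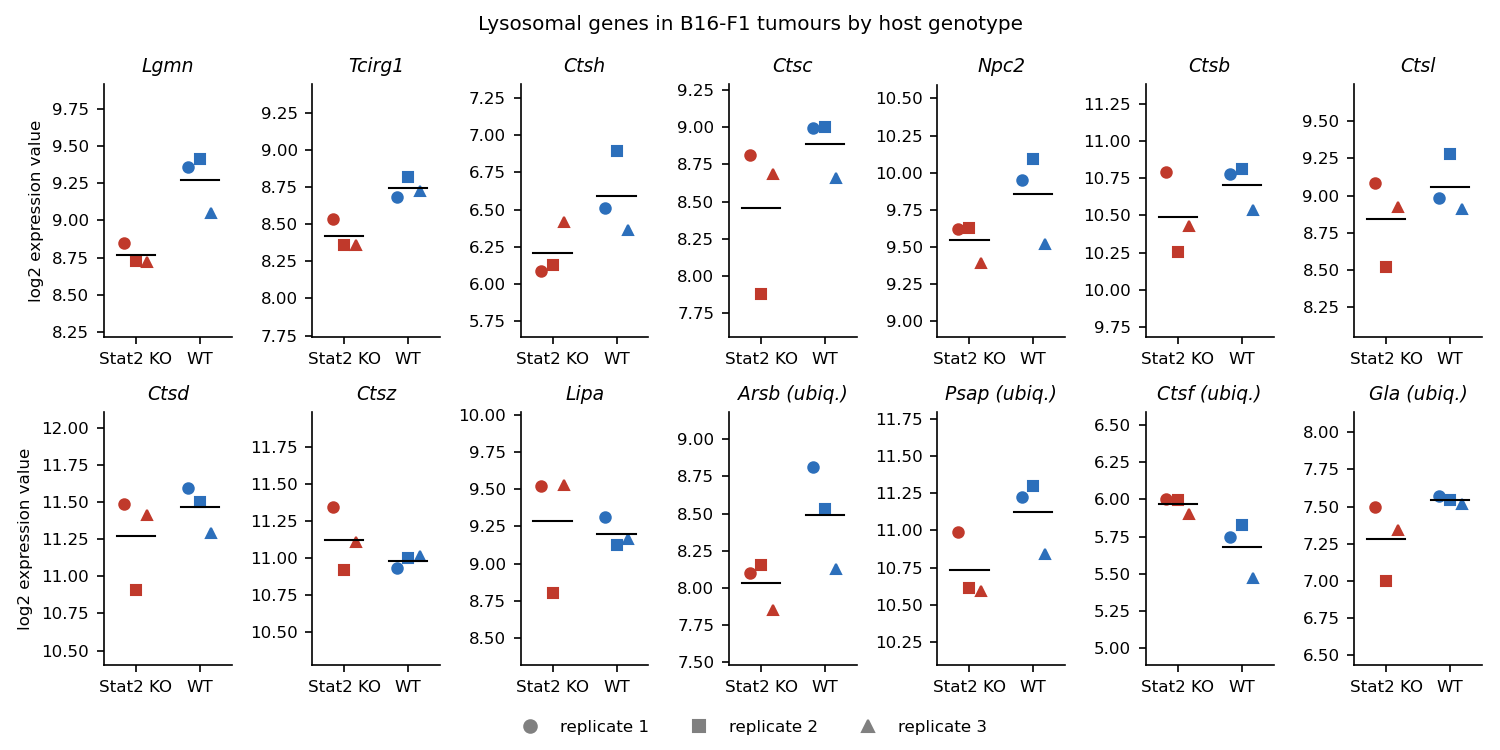
Log2 expression values of the 10 myeloid-rich genes and of 4 ubiquitous genes (ubiq.) in each tumour, Stat2 KO hosts (red) left of WT hosts (blue), with the mean as a line and the replicate number as the marker; every panel spans the same height. Lgmn, Tcirg1 and Gla have all Stat2 KO tumours below the WT tumours and Ctsf has them above, while Ctsz and Lipa overlap.

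Lysosomal genes varied together from tumour to tumour within each host, and the brightest bin moved in the same direction in each tumour. The median deviation of the 41 genes from their own means over all tumours was 0.16, -0.27 and -0.084 in Stat2 KO replicates 1, 2 and 3, against 0.19, 0.18 and -0.13 in WT replicates 1, 2 and 3. Stat2 KO replicate 1 was thus about as high as the upper WT tumours, and WT replicate 3 was below it. The brightest bin had median deviations of 0.083, -0.18 and -0.060 in Stat2 KO replicates 1, 2 and 3, against 0.12, 0.067 and -0.024 in the WT replicates. Stat2 KO replicate 2 was the lowest of all 6 tumours for 20 of the 41 genes, or 48.8%, where the brightest bin had 52.5%. Within the WT group replicate 3 was the lowest for 35 of the 41 genes, or 85.4%, against 57.6% of the brightest bin.

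The macrophage markers, 11 of 12 measured, were lower in 10 of 11, or 90.9%, with a median of -0.21, beside 46.0% of all genes. At an unadjusted p under 0.05 stood 3 of them, or 27.3%, all lower, beside 3.48% of all genes. Their median level was 6.13, within a bin of genes of which 24.2% were lower and 1.39% lower at that p. Their mean level was 6.02 to 6.26 in Stat2 KO and 6.34 to 6.53 in WT hosts (log2), and these did not overlap between the groups. Their median deviations did overlap, with 0.0049 in Stat2 KO replicate 3 against -0.0069 in WT replicate 3. Single macrophage markers had mean levels from 5.59 to 7.35, on both sides of the olfactory genes' 95th percentile. The 3 with the smallest p had differences of -0.95 (SE 0.16) for C1qb, -0.83 (SE 0.19) for Ms4a7 and -0.49 (SE 0.14) for C1qc. Ms4a7 and C1qc had mean levels of 6.23 and 6.12, below 6.72, so signal above background was not shown for them. C1qb, at 6.91, lay above it. C1qb and C1qc encode chains of complement C1q, and Ms4a7 a macrophage membrane protein. The neutrophil markers, 7 of 7 measured, were lower in 1 of 7 with a median of 0.23, and all 7 had mean levels below that percentile. Of dim genes in general, 29.1% were lower in the dimmest bin and 24.2% in the next. Markers of dendritic cells were lower in 1 of 5, of T and NK cells in 1 of 7, of B cells in 1 of 3, of endothelial cells in 3 of 5, of keratinocytes in 1 of 4 and of skeletal muscle in 1 of 5. The T and NK cell, B cell, keratinocyte and skeletal muscle markers all had mean levels below 6.72 as well.

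The tumour order differed between these lists. Stat2 KO replicate 1 was high for lysosomal genes and for the pigment cell markers, with median deviations of 0.16 and 0.15, and low for macrophage markers, at -0.17. Stat2 KO replicate 2 was low for all 3, at -0.27, -0.42 and -0.094. The pigment cell markers were lower in 8 of 11, or 72.7%, with a median of -0.091, beside 76.6% of the brightest bin. For 10 of these 11 markers, or 90.9%, Stat2 KO replicate 2 was the lowest of all tumours, beside 52.5% of the brightest bin. The part of macrophage or pigment cell content in the lysosomal differences was not tested.

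**Figure D5:**
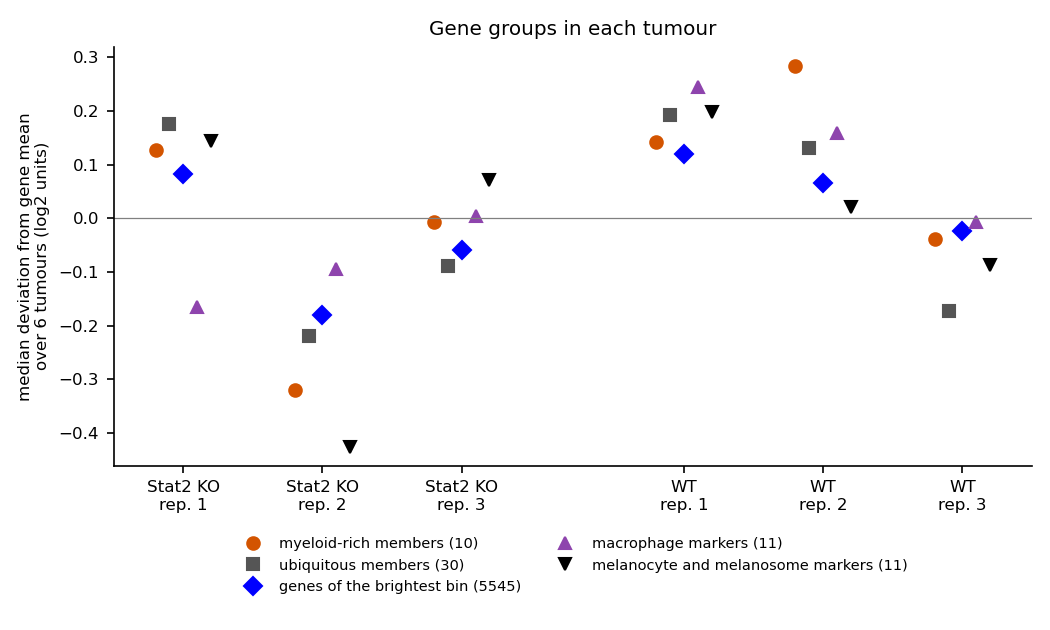
Median deviation, in log2 units, of each gene group from its genes' means over the 6 tumours, for Stat2 KO replicates (left) and WT replicates (right). Myeloid-rich and ubiquitous lysosomal genes are lowest in Stat2 KO replicate 2, as are the pigment cell markers and the brightest bin, whereas macrophage markers are lowest in Stat2 KO replicate 1.

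Further genes of the lysosomal pathway were taken from lists outside the 42. Of 21 other hydrolases and cofactors measured of 30 listed, 14, or 66.7%, were lower with a median of -0.15, beside 46.0% of all genes and 76.6% of the brightest bin. At an unadjusted p under 0.05 stood 2 of them, or 9.52%, both lower, beside 3.48% of all genes and 6.33% of the brightest bin. Ctss, a cysteine protease of antigen-presenting cells, averaged 6.73 ± 0.085 in Stat2 KO hosts, against 7.65 ± 0.20 in WT hosts, a difference of -0.92 (SE 0.14, adjusted p = 0.133). Cd68, a macrophage relative of the LAMP proteins, averaged 7.71 ± 0.23 in Stat2 KO hosts, against 8.32 ± 0.23 in WT hosts, a difference of -0.61 (SE 0.16, adjusted p = 0.449). These 2 stood further from 0 than any of the 41, and neither passed. Grn, whose product progranulin supports lysosomal enzymes, differed by -0.35 (SE 0.18).

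Other lysosomal membrane proteins, 17 of 18 measured, were lower in 13, or 76.5%, with a median of -0.14, about the share of the brightest bin. Laptm5, a protein of blood cells, was the 1 with an unadjusted p under 0.05, at -0.41 (SE 0.15, adjusted p = 0.509). That is 5.88% of the list, beside 3.48% of all genes and 6.33% of the brightest bin lower at that level. Slc11a1, the metal transporter of phagosomes, differed by -0.27 (SE 0.13). Neither gene overlapped between hosts (11.8% of the list, beside 5.11% of all genes). Both had mean levels below 6.72, at 6.12 and 6.41, so signal above background was not shown for them. Mfsd8 differed by 0.31 (SE 0.14), with all Stat2 KO tumours higher (5.88% of the list, beside 8.23% of all genes).

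Proton pump subunits, 16 of 17 measured, were lower in 13, or 81.2%, with a median of -0.15, beside 76.6% of the brightest bin, and 0 had an unadjusted p under 0.05. Atp6v1d differed by -0.44 (SE 0.22) and Atp6v0d1 by -0.35 (SE 0.19). Sorting receptors, adaptors and the TFE transcription factors, all 24 measured, were lower in 21, or 87.5%, with a median of -0.080, nearer to 0 than the -0.11 of the brightest bin. Among them 2, or 8.33%, had an unadjusted p under 0.05, both lower, beside 3.48% of all genes and 6.33% of the brightest bin. These were the adaptor gene Ap3d1 at -0.41 (SE 0.16) and the GTPase gene Rragd at -0.36 (SE 0.16). Tfe3, which binds CLEAR elements, differed by -0.20 (SE 0.13). Over these 4 lists 0 genes passed the adjusted threshold.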

How the data were processed

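The values the authors deposited are on the log2 scale and cover 41345 probe sets in each tumour. Per the submitters' processing notes, RMA in Affymetrix Expression Console 1.3.1 was used. No genome build for the arrays is given in the sources used here. Platform annotation gave 1 gene to 23521 probe sets, several to 1814 and none to 16010, and each of 22180 genes was taken from its brightest probe set naming no other gene. Dim probe sets were kept.

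Differences came from limma 3.58.1 in R 4.3.3 (lmFit and eBayes with an intensity trend, two-sided, Benjamini-Hochberg adjustment over all genes, threshold 0.05). Single genes were also compared by exact permutation of the tumours. The procedure was tested on simulated data. The number of arrays limits the precision. Genes were split into 4 equal bins by mean level. Promoter windows are RefSeq's, on GRCm38.p6.

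The members, their classes, the pathway and marker lists and the tests were chosen with earlier results of these data known. All measured members may be named. Values per tumour are given for the 8 members with the smallest p, the myeloid-rich members and the brightest and dimmest member, with Gla, Ctsk, Ctso and Lamp1 added after their values were seen. Of each pathway or marker list up to 4 genes with the smallest p may be named.

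Alternatives tried were a replicate block, quantile normalization, centring on array medians, dropping genes dimmer than the median gene, averaging a gene's probe sets, eBayes without the trend, array weights, and each tumour left out in turn. Cyclic loess was added after seeing the data.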

Additional observations from a re-analysis of the deposited data

How the results depend on the processing

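With 3 tumours a host, the tests had little room, and the table gives no signal over background for single probe sets. Over all genes 2 passed 0.05 (1956 at an unadjusted p under 0.05). The count was 0 after quantile normalization (1666 unadjusted), 1 without the eBayes trend, 1 after cyclic loess and 257 with array weights, which gave Stat2 KO replicate 3 and WT replicate 2 the most weight, and 0 to 17 with a tumour left out, 17 of them without WT replicate 3. Lysosomal genes lower at an unadjusted p under 0.05 numbered 5, against 3 after quantile normalization, 3 after cyclic loess, 13 with array weights, and 1 to 10 with a tumour left out. The number lower was 26 to 37, the median -0.27 to -0.056 and the difference between classes -0.21 to -0.084 with a tumour left out. The median of all genes was 0.021, and -0.045 after median centring. The labels do not say whether the replicate numbers pair the tumours, and the values do not settle it. Same-numbered tumours' deviations correlated at 0.240, 0.079 and 0.030, and 3 of 6 tumours correlated best with their own number. With the replicate number as a block 3 genes passed over all genes (2484 at an unadjusted p under 0.05), and 6 lysosomal genes were lower at an unadjusted p under 0.05. Of the 41 lysosomal genes 25 kept their sign under all 14 alternatives and 16 did not, and 1 value passed the adjusted threshold, that of Lgmn with array weights. After quantile normalization the sign turned for Man2b1 (0.036), Fuca1 (0.092), Asah1 (0.012), Gusb (0.069), Ids (0.044), Ppt1 (0.025), Lamp2 (0.056) and Atp6ap1 (0.071). After cyclic loess it turned for the same 8, at 0.033, 0.094, 0.029, 0.085, 0.028, 0.048, 0.071 and 0.10. Median centring turned Mcoln1 (-0.020). Array weights turned Ctsa (-0.059), Neu1 (-0.042), Hexa (0.062), Lamp2 (0.097) and Mcoln1 (-1.1e-05). With a tumour left out, the difference ranged from -0.21 to 0.092 for Asah1, -0.18 to 0.096 for Atp6ap1, -0.011 to 0.30 for Ctsa, -0.21 to 0.10 for Fuca1, -0.17 to 0.15 for Gusb, -0.30 to 0.16 for Hexa, -0.19 to 0.035 for Lamp1, -0.14 to 0.19 for Lamp2, -0.038 to 0.33 for Lipa, -0.27 to 0.039 for Man2b1, -0.24 to 0.071 for Manba, -0.061 to 0.15 for Mcoln1, -0.031 to 0.19 for Neu1, -0.23 to 0.042 for Ppt1 and -0.26 to 0.088 for Smpd1. The cause of these turns was not tested.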

Other observations

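The cystatins inhibit the cysteine cathepsins. Of 8 measured, 2, or 25.0%, were lower in Stat2 KO hosts, and the median difference was 0.22. Their median level was 6.11, within a bin of genes of which 24.2% were lower. Of the 8, 0 passed the adjusted threshold of limma. At an unadjusted p under 0.05, 1 was higher, or 12.5%, beside 5.34% of all genes and 7.81% of that bin. That was Cst3, the secreted cystatin C, which read 9.48, 9.14 and 9.32 in Stat2 KO hosts, against 9.08, 8.89 and 9.01 in WT hosts (log2), a difference of 0.32 (SE 0.14). Every Stat2 KO tumour was above every WT tumour. Cstb, the cytosolic cystatin B, read 9.08, 9.12 and 9.01 in Stat2 KO hosts, against 9.45, 9.41 and 9.21 in WT hosts, a difference of -0.29 (SE 0.13), with every Stat2 KO tumour below every WT tumour. Over all genes 8.23% did not overlap with Stat2 KO higher and 5.11% with Stat2 KO lower. In the brightest bin, which holds both Cst3 and Cstb, these shares were 1.48% and 8.67%. There, 1.19% of genes were higher at an unadjusted p under 0.05.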
